A study of Mus musculus with 24 samples.

Results

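Asns, Trib3, Ddit3, Atf3, Atf4, Atf5, Chac1, Psat1 and Phgdh are 9 genes of the amino acid and integrated stress response that is built around the transcription factor ATF4. They were followed across the livers of mice of 3 inbred strains on a methyl-donor-deficient diet and on its control. Members were taken by gene name: every gene probe of the array that carries one of the 9 names was used, which gave 12 of 55681 distinct probes, and all 9 genes passed the filter on dim probes, among 15542 genes tested. The study measured liver RNA of mice, all males, of the strains A/J, WSB/EiJ and C3H/HeJ, on 24 single-colour arrays, with 4 arrays for every one of the 6 strain and diet groups. Each group holds mice of 20 weeks of age that had been on their diet for 12 weeks, from 8 weeks of age on. The deficient groups of the 3 strains ate a diet without choline and folic acid and with 0.17% methionine. The control groups of the 3 strains ate that same food with folic acid at 2 mg/kg, choline bitartrate at 0.3% and methionine at 0.4%. Both diets were supplemented with iron and supplied l-amino acids in place of protein, so no group ate ordinary chow during the experiment. Whether every array holds RNA of a mouse of its own is not given in the labels, so the tests speak of the spread among these samples, which may be technical.

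When a cell runs short of an amino acid, accumulates unfolded protein or meets other stresses, kinases phosphorylate the initiation factor eIF2alpha. General translation falls, while the ATF4 mRNA, which is held back by upstream reading frames, is translated more. ATF4 protein then binds C/EBP-ATF response elements and raises genes of amino acid synthesis and uptake together with further transcription factors, among them Ddit3 (CHOP), Atf3 and Atf5. Since ATF4 is set largely by translation, its mRNA on an array does not report its protein.

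The stretches below come from RefSeq promoter windows of mouse build GRCm38.p6 and show where letters of the ATF4-type element lie before the starts of 5 members. The 9 genes have 11 start sites in that set, and only the 250 bases before each start were searched, on both strands. The motif TGATGNAA (TTNCATCA on the other strand), with N for any base, was found before the starts of 3 of the 9 genes, Asns, Atf3 and Chac1, and in 3.45% of all 32851 windows of the same length. A variant of it, TGGTGCAAT, was chosen after the sequences had been read. It lies before the starts of Trib3 and Psat1, and in 0.0761% of all windows. No match of the variant overlaps a match of the other motif. Capitals mark the matched letters, and each line runs 5′ to 3′ on the strand of its gene.
Asns: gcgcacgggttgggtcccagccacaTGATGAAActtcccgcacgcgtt
Atf3: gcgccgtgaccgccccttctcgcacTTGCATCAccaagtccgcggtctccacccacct
Chac1: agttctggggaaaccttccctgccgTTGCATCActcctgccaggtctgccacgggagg
Trib3: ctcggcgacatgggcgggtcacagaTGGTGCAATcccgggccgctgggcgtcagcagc
Psat1: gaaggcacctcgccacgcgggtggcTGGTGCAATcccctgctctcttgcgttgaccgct
The Asns stretch is chr6:7693210-7693257 (minus strand), with its match beginning 23 bases before the start. The Atf3 stretch is chr1:191183411-191183468 (minus strand, 110 bases before the start) and the Chac1 stretch chr2:119351024-119351081 (plus strand, 193 bases before the start). In both, the motif reads on the strand opposite to the gene. The Trib3 stretch is chr2:152344061-152344118 (minus strand, 33 bases before the start) and the Psat1 stretch chr19:15925162-15925220 (minus strand, 136 bases before the start). The longest run that the Trib3 and Psat1 windows share is the 12 bases TGGTGCAATCCC there. It was picked from these windows and then counted in 4 of the 32851 windows, those of Trib3 and Psat1 included. That count is therefore no test of the run. A match is a run of letters and was not tested for binding.

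Signals are given as scaled intensity: the processed signal of the gene's brightest probe after each array was brought to a common 75th percentile, in arbitrary units that can be compared between arrays but not between genes. The share of gene spots that cleared background clearly ran from 44.4% to 56% per array, no gene spot was saturated, and replicate arrays of a group correlated at 0.976 to 0.995 over the genes tested. All 10 hepatocyte markers passed the filter, but so did all 10 macrophage markers, so passing it is no check of the tissue label. Fold changes are deficient over control diet with ± limma's standard error from 4 arrays a group, and "rose" or "fell" is used only where the Benjamini-Hochberg adjusted p of limma over all 15542 genes was under 0.05. In A/J, array 4 of each diet stood apart. On the mean of 6094 genes called in the same direction in both other strains, A/J control 4 lay at -1.92 and A/J deficient 4 at -1.94, against -2.24 to -2.08 for the other A/J control arrays and -1.74 to -1.49 for the other deficient ones. A/J results whose call changes without these 2 arrays are therefore given with that value. By their rule the 6094 genes include Atf3, Ddit3, Psat1 and Phgdh. Leaving the 2 arrays out is thus no independent check of the A/J values of these members. The choice of scale matters for small changes: the median of all genes moved by -0.05, -0.12 and -0.29 on the log2 scale with diet in A/J, C3H/HeJ and WSB/EiJ, and by 0.31, 0.37 and 0.58 when arrays were scaled on their spike-in probes instead.

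The deficient diet raised part of the set in every strain, and the part differed. Atf3 and Psat1 rose in all 3 strains. Asns and Atf5 passed in A/J (other scalings also called Atf5 in C3H/HeJ and WSB/EiJ), Phgdh and Ddit3 rose in C3H/HeJ and WSB/EiJ, Trib3 rose in A/J and WSB/EiJ, and Chac1 rose in WSB/EiJ and fell in C3H/HeJ. Atf4 mRNA passed the test in no strain, though other settings given below called it lower in C3H/HeJ or higher in WSB/EiJ. In A/J, 5 of the 9 genes rose and 0 fell, where 5.93% of all genes rose and 4.41% fell (at an unadjusted limma p under 0.05, 6 rose and 0 fell). In C3H/HeJ, 4 rose and 1 fell, against 18.2% and 27.1% of all genes. In WSB/EiJ, 6 rose and 0 fell, against 24.6% and 47.6% (6 and 0 at an unadjusted p under 0.05). The median change of the 9 genes was 0.63, 1.01 and 2.31 on the log2 scale in the order A/J, C3H/HeJ and WSB/EiJ, beside -0.05, -0.12 and -0.29 for all genes. The deficient arrays lay above all control arrays for 3 members in A/J, 4 in C3H/HeJ and 6 in WSB/EiJ, where this held for 8.43%, 14.9% and 23.2% of all genes. The arrays lay on 3 slides, each with both diets of every strain. Within the slides the change kept 1 sign for Psat1, Asns, Ddit3, Trib3 and Atf5 in A/J, and for every member but Asns in C3H/HeJ and for all members in WSB/EiJ. Within-slide values of Atf3 in A/J were 3.96, -0.57 and 3.03.

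**Figure D1:**
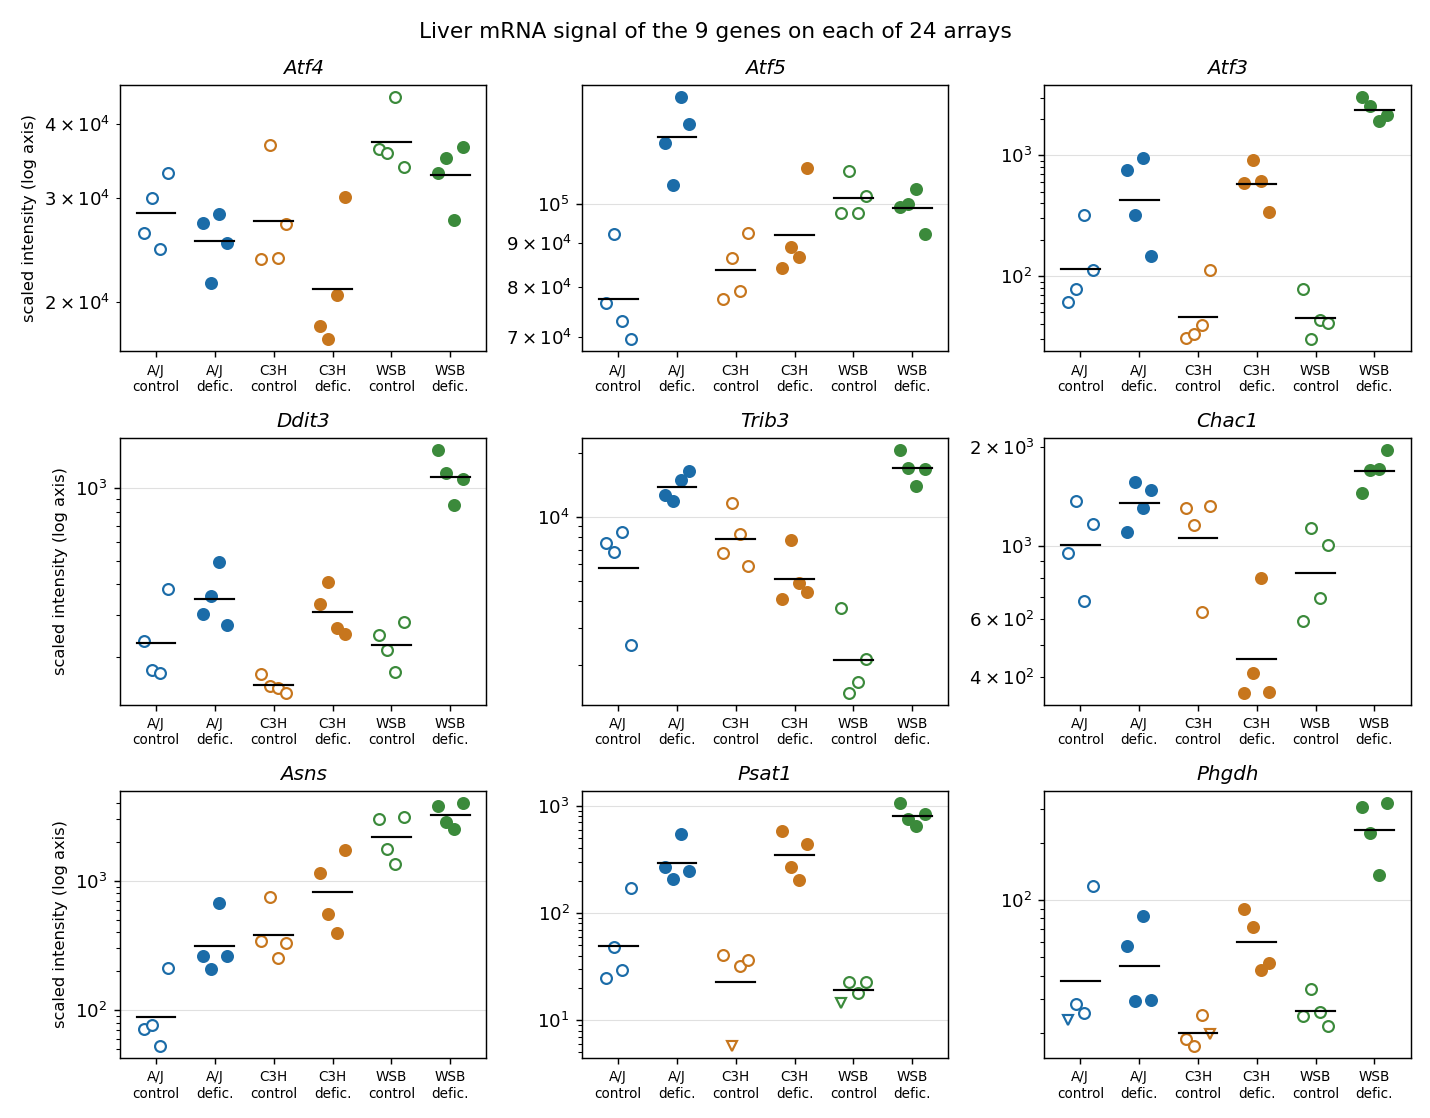
Scaled intensity (arbitrary units, log axis, with its own range for each gene) of the 9 genes on each of the 24 arrays, open points for the control diet, filled points for the deficient diet, black bars for the geometric mean of 4 arrays, and downward triangles for arrays not well above background. Atf3, Psat1 and Phgdh are low on most control arrays and highest in WSB/EiJ on the deficient diet, Asns is ordered by strain, and Atf4 moves little.

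Atf4, the central factor of the response, is read by a probe in mm9 at chromosome 15, 80087902 to 80087961. In A/J its signal was 26137, 29986, 24582 and 33020 on the control diet and 27234, 21556, 28187 and 25150 on the deficient diet. In C3H/HeJ it was 23680, 36867, 23762 and 27152 on the control diet and 18217, 17300, 20532 and 30149 on the deficient diet. In WSB/EiJ it was 36349, 35722, 44427 and 33772 on the control diet and 33038, 35061, 27490 and 36623 on the deficient diet. The diet groups overlapped in every strain. The changes were -0.15 ± 0.17, -0.38 ± 0.17 and -0.19 ± 0.17 in the order A/J, C3H/HeJ and WSB/EiJ (limma adjusted p = 0.6, 0.0688 and 0.328). These signs are those of scaling on the 75th percentile: in WSB/EiJ the value was 0.60, 0.68 and 0.63 with quantile normalization, spike-in scaling and normexp correction, with limma adjusted p between 0.000663 and 0.00253. Here and below, normexp-corrected signals were also quantile normalized, so that setting is not independent of quantile normalization. The sign also turned in A/J with quantile normalization and spike-in scaling, and in C3H/HeJ with spike-in scaling and normexp correction. A second Atf4 probe (80086639 to 80086698) changed by -0.13, -0.25 and -0.23, and correlated with the other at 0.891 over 24 arrays. In C3H/HeJ the value of the first probe passed with slide as a block (-0.45 ± 0.15, limma adjusted p = 0.0171), with array weights (-0.37 ± 0.13, 0.0196) and without deficient 4, the highest of its group (-0.56 ± 0.15, 0.00522).

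Atf5, a related factor whose mRNA carries the same kind of upstream reading frames and which is abundant in liver, gave a different picture (probe at chromosome 7, 52067627 to 52067686). In A/J its signal was 76560, 92293, 73063 and 69504 on the control diet and 117819, 105208, 133126 and 123813 on the deficient diet. All 4 deficient arrays lay above all control arrays, and Atf5 rose 1.55-fold (0.63 ± 0.10, limma adjusted p = 6.01e-04). In C3H/HeJ the control arrays gave 77438, 86349, 79112 and 92467 and the deficient arrays 84088, 89116, 86585 and 109941. In WSB/EiJ they gave 97622, 109191, 97453 and 102178 against 99047, 100047, 104112 and 92139. Both pairs of groups overlapped, with changes of 0.14 ± 0.10 and -0.04 ± 0.10 (limma adjusted p = 0.286 and 0.736). The call in A/J held under every scaling, but those in the other strains did not: with quantile normalization, spike-in scaling and normexp correction Atf5 changed by 0.99, 0.83 and 1.03 in WSB/EiJ and by 0.52, 0.63 and 0.48 in C3H/HeJ, with limma adjusted p no higher than 0.00176. Median centring gave 0.12 in WSB/EiJ.

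Atf3, a stress-inducible factor of the same bZIP family, showed the widest response of the transcription factors (probe at chromosome 1, 192994547 to 192994606). In WSB/EiJ the control signals were 78.0, 29.9, 43.4 and 40.4, and the deficient signals were 3039, 2581, 1915 and 2150. That is a rise of 53.01-fold (5.73 ± 0.56, limma adjusted p = 2.65e-08) with wide separation of the groups. In C3H/HeJ the controls gave 30.9, 33.1, 39.1 and 112.9 and the deficient arrays 585.1, 915.7, 615 and 339.8. Here too the groups did not overlap, and Atf3 rose 12.6-fold (3.65 ± 0.56, limma adjusted p = 4.46e-05). In A/J the controls gave 61.3, 78.1, 320 and 111.1 and the deficient arrays 758.1, 318.1, 952.4 and 146.2. These groups overlapped through control 3, which lay above deficient 2 and 4, and the rise was 3.75-fold (1.91 ± 0.56, limma adjusted p = 0.0323). The A/J call was lost without control 1, 2 or 4 or deficient 1 or 3 (1.52 to 1.89, limma adjusted p = 0.0527 to 0.132), with no background filter (0.0547) and in a fit of the A/J groups alone (0.136). The value was 2.41 ± 0.58 (limma adjusted p = 0.00967) without both arrays numbered 4.

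Ddit3, which encodes CHOP, a factor tied to death of stressed cells, rose in C3H/HeJ and WSB/EiJ (probe at chromosome 10, 126732518 to 126732821 across its mapped span). In WSB/EiJ its signal was 247.8, 214.4, 173 and 280 on the control diet and 1437, 1159, 850 and 1091 on the deficient diet, a 4.95-fold rise (2.31 ± 0.24, limma adjusted p = 6.14e-08). In C3H/HeJ it was 169.7, 152, 148.4 and 142.6 against 331, 410.3, 263.7 and 248.5, a 2.01-fold rise (1.01 ± 0.24, limma adjusted p = 0.00221). Neither pair of groups overlapped. In A/J it was 233.9, 176.3, 172 and 383.4 against 301.2, 356.9, 496 and 272.4. Control 4 lay above 3 of the 4 deficient arrays, and the change was 0.60 ± 0.24 (limma adjusted p = 0.112). Without control 4 the A/J value passed (0.85 ± 0.22, limma adjusted p = 0.0163), as it did with spike-in scaling (0.96 ± 0.32, 0.0299) and array weights (0.77 ± 0.21, 0.0118), and without both arrays numbered 4 it was 0.97 ± 0.23 (0.00754).

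**Figure D2:**
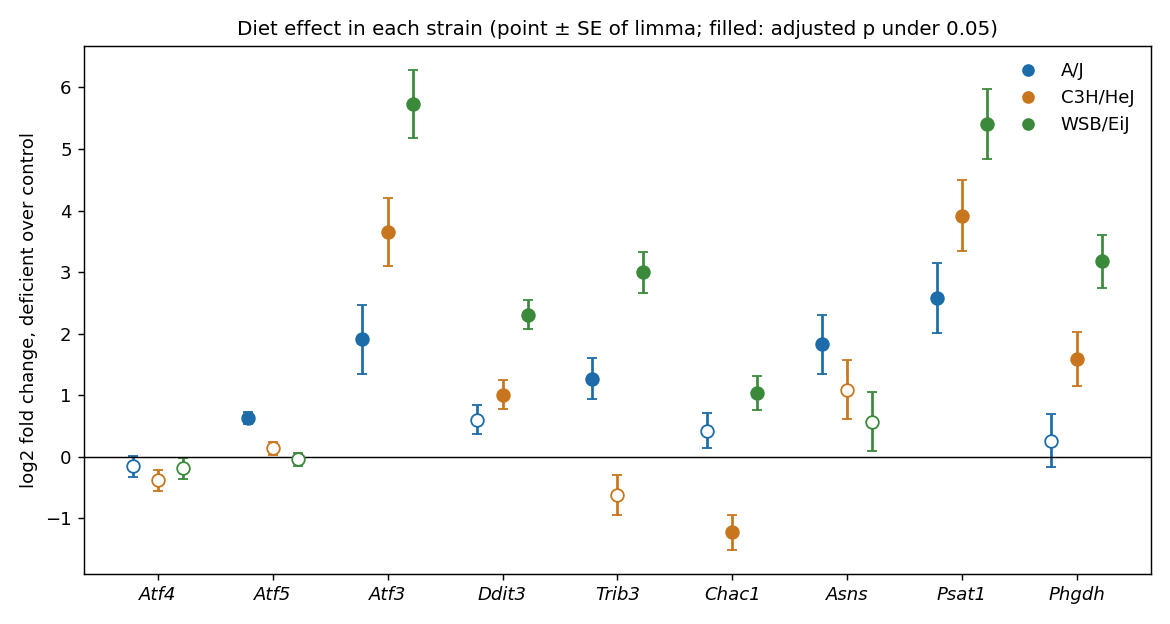
Log2 fold change of each gene, deficient over control diet, in A/J, C3H/HeJ and WSB/EiJ; points are limma estimates from 4 arrays per group, bars are standard errors, and filled points have an adjusted p under 0.05. Atf3, Psat1, Phgdh and Ddit3 lie higher in WSB/EiJ than in A/J, Trib3 and Chac1 lie below 0 in C3H/HeJ alone, and Asns passes in A/J.

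Trib3 and Chac1 are induced downstream of ATF4 and CHOP. In C3H/HeJ, where Ddit3 rose, Chac1 fell and Trib3 had a change below 0 that did not pass. Trib3 is a pseudokinase that binds AKT and dampens ATF4 and CHOP activity (probe at chromosome 2, 152163161 to 152163220). In WSB/EiJ its signal was 3720, 1491, 1677 and 2151 on the control diet and 20554, 16987, 13962 and 16724 on the deficient diet, a 7.99-fold rise (3.00 ± 0.33, limma adjusted p = 1.48e-07). In A/J it was 7544, 6802, 8470 and 2487 against 12642, 11867, 14914 and 16397, a 2.41-fold rise (1.27 ± 0.33, limma adjusted p = 0.0181). Deficient arrays lay above all controls in both strains, but A/J control 4 was far below its group, and without both arrays numbered 4 the A/J value was 0.79 ± 0.30 (limma adjusted p = 0.0799). Leaving out A/J deficient 3 alone also ended the call (1.24 ± 0.37, limma adjusted p = 0.0571), as did a fit of the A/J groups alone (0.0795). In C3H/HeJ it was 6771, 11662, 8314 and 5839 against 4088, 7795, 4875 and 4418. Of these deficient arrays 3 lay below every control array, and the change was -0.62 ± 0.33 (limma adjusted p = 0.133).

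Chac1 degrades glutathione in the cytosol (probe at chromosome 2, 119179990 to 119180049). In C3H/HeJ its signal was 1310, 1160, 628.2 and 1325 on the control diet and 357.5, 410.9, 798.6 and 358 on the deficient diet. All but deficient 3 lay below every control, and Chac1 fell by 1.23 ± 0.28 on the log2 scale (limma adjusted p = 0.00171). In WSB/EiJ it was 589.2, 1136, 694.6 and 1009 against 1453, 1700, 1714 and 1959, without overlap, a 2.05-fold rise (1.04 ± 0.28, limma adjusted p = 0.00259). In A/J it was 950.1, 1372, 680.5 and 1169 against 1105, 1567, 1306 and 1481, with overlap and a change of 0.42 ± 0.28 (limma adjusted p = 0.352). Spike-in scaling moved the A/J value to 0.78 ± 0.28 (0.0439).

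The remaining members are enzymes of amino acid synthesis. Asns, asparagine synthetase, makes asparagine from aspartate and glutamine (probe at chromosome 6, 7625171 to 7625228). In A/J its signal was 71.3, 76.0, 53.1 and 211.2 on the control diet and 262.5, 207.1, 671.8 and 263.4 on the deficient diet. The groups met at control 4 and deficient 2, and Asns rose 3.55-fold (1.83 ± 0.48, limma adjusted p = 0.0197). Without both arrays numbered 4 the value was 2.33 ± 0.52. The call was lost without control 1, 2 or 3 or deficient 3 (1.46 to 1.76, limma adjusted p = 0.0506 to 0.0895), with normexp correction (1.28 ± 0.42, 0.0586) and in a fit of the A/J groups alone (0.0698). In C3H/HeJ the signals were 342.4, 745.7, 255.2 and 329.5 against 1155, 556.2, 398.4 and 1731, with overlap through control 2 (1.09 ± 0.48, limma adjusted p = 0.0714). Without that control, or without deficient 3, the C3H/HeJ value passed (1.41 and 1.44, limma adjusted p = 0.031 and 0.026), and likewise with spike-in scaling (1.58, 0.0136) and array weights (1.25, 0.014). In WSB/EiJ they were 3016, 1761, 1356 and 3118 against 3795, 2866, 2536 and 3982, with overlap (0.57 ± 0.48, limma adjusted p = 0.294). Spike-in scaling moved this to 1.44 ± 0.50 (limma adjusted p = 0.0148).

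Psat1, phosphoserine aminotransferase of the serine pathway, rose in every strain (probe at chromosome 19, 15979622 to 15979681). In A/J its signal was 24.7, 47.8, 29.5 and 170.5 on the control diet and 267.7, 209.1, 544.8 and 248.4 on the deficient diet. In C3H/HeJ it was 40.8, 5.78, 32.2 and 36.2 against 587.8, 271.2, 204.4 and 441.8. In WSB/EiJ it was 14.3, 22.6, 18.1 and 22.5 against 1054, 756.4, 644.8 and 841.3. The groups did not overlap in any strain, and the rises were 5.98-fold (2.58 ± 0.57), 15.1-fold (3.92 ± 0.57) and 42.6-fold (5.41 ± 0.57), with limma adjusted p of 0.00657, 2.78e-05 and 7.79e-08. C3H/HeJ control 2 and WSB/EiJ control 1 were not well above background, so the size of these folds rests partly on dim signals. A second, dimmer Psat1 probe (15991586 to 15991645) was well above background on 1 of 4 control arrays in C3H/HeJ and in WSB/EiJ and on all 4 deficient arrays. Its fitted changes there were 2.00 ± 0.52 and 2.89 ± 0.52 in a limma fit of 20734 probes, sizes that rest mostly on control signals not well above background. It was not well above background on any A/J control array, and its rise there was at least 1.89-fold (limma adjusted p = 0.0453). The lower bound sets each dim array at the dimmest signal of any probe that cleared background on that array, or at the probe's own signal where that was higher.

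Phgdh, phosphoglycerate dehydrogenase, catalyses the step that commits a glycolytic intermediate to serine (probe at chromosome 3, 98117215 to 98117274). In WSB/EiJ its signal was 24.4, 34.1, 25.6 and 21.7 on the control diet and 309.2, 226.5, 134.8 and 323 on the deficient diet, a 9.02-fold rise (3.17 ± 0.43, limma adjusted p = 1.96e-06). In C3H/HeJ it was 18.7, 17.1, 24.95 and 19.8 against 89.9, 72.3, 42.6 and 46.4, a 3.01-fold rise (1.59 ± 0.43, limma adjusted p = 0.00582). Neither pair overlapped. In A/J it was 23.4, 28.4, 25.4 and 118.2 against 57.5, 29.5, 82.2 and 29.8, so that control 4 exceeded every deficient array (0.26 ± 0.43, limma adjusted p = 0.734). Without both arrays numbered 4 the 2 A/J diet groups no longer overlapped, and the value was 1.02 ± 0.35 (limma adjusted p = 0.059). A/J control 1 and C3H/HeJ control 4 were not well above background. A second Phgdh probe (98117303 to 98117361) rose at least 3.62-fold in C3H/HeJ and at least 12.8-fold in WSB/EiJ, with 0 of 4 control arrays well above background in both strains, and correlated with the other at 0.954.

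**Figure D3:**
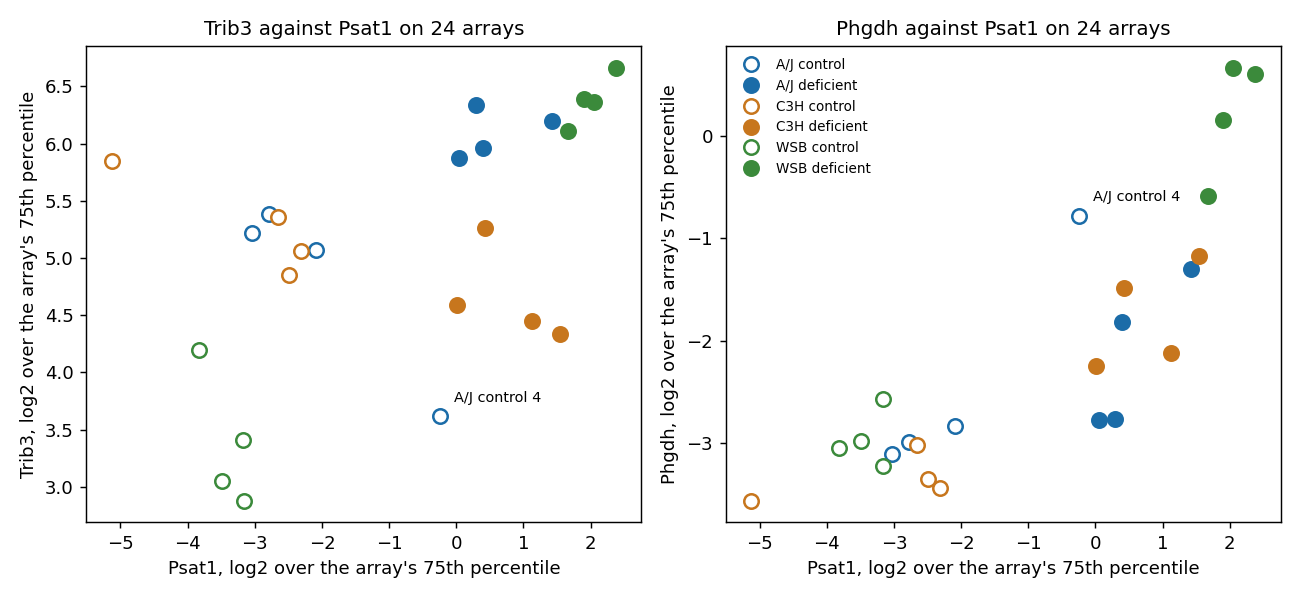
Trib3 against Psat1 (left) and Phgdh against Psat1 (right) on the 24 arrays, as log2 of the signal over the array's 75th percentile, open points for the control and filled points for the deficient diet. Phgdh and Psat1 are both high on the WSB/EiJ deficient arrays, and A/J deficient 2 and 4 have high Psat1 with Phgdh near control level. C3H/HeJ deficient arrays have high Psat1 with Trib3 below or within the range of their controls. A/J control 4 lies away from its group in both plots.

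Whether the diet acted differently between strains was tested as the difference of the diet effects. Against A/J, the WSB/EiJ effect was larger for Atf3 (3.82 ± 0.79, limma adjusted p = 6.83e-04), Phgdh (2.91 ± 0.61, 7.98e-04), Psat1 (2.83 ± 0.81, 0.00715), Trib3 (1.73 ± 0.47, 0.00532) and Ddit3 (1.70 ± 0.34, 4.95e-04). It was smaller for Atf5 (-0.67 ± 0.14, 9.9e-04), although this sign turned with quantile normalization and normexp correction (0.16 and 0.17) and the call was lost with spike-in scaling (-0.15, 0.533). The second Psat1 probe gave a WSB/EiJ minus A/J difference of 1.202 ± 0.732, which did not pass (limma adjusted p = 0.183). These 5 higher and 1 lower of the 9 members stand beside 17% higher and 31.9% lower over all genes. Against C3H/HeJ, the WSB/EiJ effect was larger for Trib3 (3.62 ± 0.47, limma adjusted p = 2.59e-05), Chac1 (2.26 ± 0.40, 4.7e-04) and Ddit3 (1.30 ± 0.34, 0.00854), so 3 higher and 0 lower, where 9.25% and 16.9% of all genes were (5 and 0 at an unadjusted p under 0.05). Against A/J, the C3H/HeJ effect was smaller for Trib3 (-1.89 ± 0.47, limma adjusted p = 0.0284) and Chac1 (-1.65 ± 0.40, 0.0232), so 0 higher and 2 lower, where 2.14% and 1.31% of all genes were (2 and 3 at an unadjusted p under 0.05). Neither of these 2 calls held without both A/J arrays numbered 4 (-1.41 and -1.68, limma adjusted p = 0.0878 and 0.0647), with spike-in scaling (0.0574 and 0.056) or in a fit of the compared groups alone (0.0671 and 0.0675). With no background filter the Trib3 difference had a limma adjusted p of 0.0515. The Trib3 call also ended without A/J deficient 4, C3H/HeJ control 2 or 3 or C3H/HeJ deficient 1 or 3 (-1.70 to -1.87, limma adjusted p = 0.0519 to 0.0675). The Chac1 call ended without deficient 2 or 4 of A/J or deficient 1 or 2 of C3H/HeJ (-1.54 to -1.61, 0.0524 to 0.0581). Between WSB/EiJ and C3H/HeJ the differences for Atf3 (2.08), Phgdh (1.59) and Psat1 (1.49) did not pass (limma adjusted p = 0.0564, 0.0601 and 0.172). Each passed without 1 array: Atf3 without C3H/HeJ deficient 2 or WSB/EiJ control 1 (2.30 and 2.34), Phgdh without C3H/HeJ deficient 1 or WSB/EiJ deficient 3 (1.78 and 1.85), and Psat1 without the dim C3H/HeJ control 2 (2.15). All 3 also passed with normexp correction (2.11, 1.18 and 1.33), Phgdh and Psat1 with array weights (1.58 and 2.02), Atf3 and Phgdh in a fit of the compared groups alone, and Atf3 among probes above background on all arrays. Atf5 passed for C3H/HeJ minus A/J without A/J control 2 or C3H/HeJ deficient 4 (both -0.58) and with array weights (-0.45). Other scales called differences of Atf4 and Atf5 too: quantile normalization and normexp correction gave 0.59 and 0.63 for Atf4 in WSB/EiJ minus A/J and 0.48 and 0.55 for Atf5 in WSB/EiJ minus C3H/HeJ, and quantile normalization gave 0.65 for Atf4 in the latter (limma adjusted p = 0.0146 to 0.0469). Spike-in scaling called Chac1 in WSB/EiJ minus A/J (1.13, 0.032). For Asns the WSB/EiJ minus A/J difference was -1.25 ± 0.69 (limma adjusted p = 0.133), and this difference passed without both A/J arrays numbered 4 (-1.76 ± 0.68, 0.0494), without control 4 alone (-1.67 ± 0.64, 0.0411) and with array weights (-1.41 ± 0.53, 0.0281). Comparisons that share a strain share its arrays.

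On the control diet the strains already differed, above all in Asns. Its geometric mean was 88.3 in A/J, 382.8 in C3H/HeJ and 2177 in WSB/EiJ. WSB/EiJ exceeded A/J 24.7-fold (4.62 ± 0.48, limma adjusted p = 1.55e-07) and C3H/HeJ 5.69-fold (2.51 ± 0.48, 2.78e-04), and C3H/HeJ exceeded A/J 4.34-fold (2.12 ± 0.48, 0.00274). The 3 sets of control arrays did not overlap. Asns is among the 6 members read by 1 probe. Whether the probes match the sequence of each strain equally was not tested, which limits the strain comparisons on both diets. Trib3 ran the other way from Asns: it was 2.71-fold lower in WSB/EiJ than in A/J (-1.44 ± 0.33, limma adjusted p = 0.00134) and 3.72-fold lower than in C3H/HeJ (-1.90 ± 0.33, 9.99e-05). Atf5 was 1.31-fold and 1.21-fold higher in WSB/EiJ than in A/J and C3H/HeJ (0.39 and 0.28), with the sign turned by quantile normalization (-0.08 and -0.07) and normexp correction (-0.07 and -0.14) and both calls lost with spike-in scaling (0.12 and 0.08, limma adjusted p = 0.488 and 0.686). The call against C3H/HeJ was also lost with median centring (0.32, 0.073), no background filter (0.0658) and slide as a block (0.25, 0.0537). Atf4 was 1.36-fold higher in WSB/EiJ than in C3H/HeJ (0.45 ± 0.17, limma adjusted p = 0.038), a call lost under quantile normalization, median centring, spike-in scaling, normexp correction, no background filter and a fit of these strains alone (limma adjusted p = 0.052 to 0.332). It was also lost without control 1, 3 or 4 of C3H/HeJ or control 1, 2 or 3 of WSB/EiJ (0.36 to 0.47). The Atf5 call against C3H/HeJ was lost without control 1 or 3 of C3H/HeJ or control 2 or 4 of WSB/EiJ (0.24 to 0.28). In all, 1, 3 and 4 members passed for C3H/HeJ against A/J, WSB/EiJ against A/J and WSB/EiJ against C3H/HeJ, where 24.6%, 45.7% and 41.5% of all genes did. Without both A/J arrays numbered 4, Atf4 passed as a further member for WSB/EiJ against A/J (0.48 ± 0.19, limma adjusted p = 0.0446).

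On the deficient diet 4, 6 and 7 members passed in the same 3 comparisons, where 21.9%, 59.6% and 51.6% of all genes did. WSB/EiJ lay above A/J for Asns (10.3-fold, 3.37 ± 0.48), Atf3 (5.57-fold, 2.48 ± 0.56), Phgdh (5.21-fold, 2.38 ± 0.43), Ddit3 (3.21-fold, 1.68 ± 0.24) and Psat1 (2.75-fold, 1.46 ± 0.57), with limma adjusted p between 5.81e-06 and 0.0332. WSB/EiJ lay above C3H/HeJ for Atf3, Asns, Phgdh, Chac1, Ddit3, Trib3 and Atf4, by 0.65 to 2.04 on the log2 scale. C3H/HeJ lay below A/J for Chac1 (2.99-fold, -1.58 ± 0.28), Trib3 (2.70-fold, -1.44 ± 0.33) and Atf5 (1.30-fold, -0.38 ± 0.10), and above it for Asns (2.61-fold, 1.38 ± 0.48, limma adjusted p = 0.0459), a call that ended without both A/J arrays numbered 4 (limma adjusted p = 0.07), with slide as a block (1.28 ± 0.48, 0.0661), with median centring (0.051), spike-in scaling (0.0552), no background filter (0.075) or the compared groups alone (0.122), and without deficient 1, 2 or 4 of A/J or deficient 1 or 4 of C3H/HeJ (1.02 to 1.30). The Atf5 call of C3H/HeJ below A/J was lost with median centring (-0.36, limma adjusted p = 0.0748), spike-in scaling (-0.31, 0.106) and the compared groups alone (0.0846). The Psat1 call of WSB/EiJ over A/J ended without deficient 1, 2 or 4 of either strain (1.29 to 1.49, limma adjusted p = 0.0521 to 0.0858) and with no background filter (0.0506). Atf5 was 1.21-fold lower in WSB/EiJ than in A/J (-0.28 ± 0.10), a sign that turned with quantile normalization and normexp correction. That call was lost with median centring (-0.09) and spike-in scaling (-0.04), without deficient 3 or 4 of A/J or deficient 4 of WSB/EiJ (-0.22 to -0.26), and without both A/J arrays numbered 4 (-0.26 ± 0.11, limma adjusted p = 0.0563).

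The order of the 6 groups set the genes apart. Asns followed strain before diet: WSB/EiJ deficient (3237), WSB/EiJ control (2177), C3H/HeJ deficient (815.8), C3H/HeJ control (382.8), A/J deficient (313.2) and A/J control (88.3), with every neighbouring pair overlapping. By geometric mean, Atf3, Psat1 and Phgdh followed diet before strain, with the 3 deficient groups above the 3 control groups. Within A/J the diet groups overlapped for Atf3 and Phgdh, and the Phgdh change did not pass (0.26 ± 0.43, limma adjusted p = 0.734). In Atf3, Psat1 and Phgdh the top group, WSB/EiJ deficient, did not overlap the next, C3H/HeJ deficient. Trib3 had WSB/EiJ deficient (16899) and A/J deficient (13841) on top with overlap. After a gap came C3H/HeJ control (7869), A/J control (5734) and C3H/HeJ deficient (5119), which overlapped. WSB/EiJ control (2115) was lowest and did not overlap C3H/HeJ deficient, but A/J control 4 (2487) lay inside its range (1491 to 3720). Ddit3 placed WSB/EiJ deficient (1115) above all others and C3H/HeJ control (152.8) below all others, both without overlap. For Chac1 the neighbours overlapped throughout, from WSB/EiJ deficient (1697) down to C3H/HeJ deficient (452.7).

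Over the 24 arrays, which share strain and diet, Ddit3 and Phgdh correlated at 0.932, Atf3 and Psat1 at 0.892, and Psat1 and Phgdh at 0.844. After group means were removed, the values were 0.70 for Ddit3 and Phgdh, 0.13 for Atf3 and Psat1 and 0.69 for Psat1 and Phgdh. Trib3 and Psat1 gave 0.516 over all arrays and -0.669 within groups. A/J control 4 stood far from its group mean on the log2 scale: -0.249 against -2.037 for Psat1 and -0.777 against -2.43 for Phgdh. The same array stood at 0.92 against 0.173 for Ddit3 and 3.618 against 4.823 for Trib3. C3H/HeJ control 2, with Psat1 not well above background, stood at -5.131 against -3.146 in that gene. How far the within-group values rest on these arrays was not tested. Among genes outside the set, those most like a member over the 24 arrays (Pearson's r of log2 signals) were Gm5086 and Ms4a4a for Atf3 (0.971 and 0.955), Cklf and Pdgfra for Ddit3 (0.969 and 0.967), and Emp1 and Fen1 for Phgdh (0.96 and 0.953). Psat1 was most like Clec7a and Ly6d (0.951 and 0.95), and Asns most like Lmo4 and Mbnl2 (0.944 and 0.939). For Atf4 they were Elavl1 and Ube2s (0.896 and 0.893), for Trib3 Cacna1a and Rasa3 (0.844 and 0.827), for Chac1 H60a and H60b (0.745 and 0.733), and for Atf5 Rps19-ps13 and Ostm1 (0.686 and 0.679).

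Upstream of ATF4, 10 genes of the eIF2alpha kinases, their regulators and the phosphatase were followed. In A/J 0 of them passed by limma (2 rose and 0 fell at an unadjusted p under 0.05), in C3H/HeJ 2 rose and 2 fell, and in WSB/EiJ 3 rose and 5 fell. These counts stand beside 5.93%, 18.2% and 24.6% of all genes that rose and 4.41%, 27.1% and 47.6% that fell. Their median changes were -0.03, -0.17 and -0.23. With spike-in scaling 5, 4 and 7 rose and 0 fell in the 3 strains. That scaling moved the median of all genes by 0.31, 0.37 and 0.58, and in A/J it called 4232 genes higher and 184 lower. Eif2ak3 (PERK, the kinase of the endoplasmic reticulum) rose by 0.49 ± 0.16 in C3H/HeJ and 1.14 ± 0.16 in WSB/EiJ, and Eif2ak2 (PKR, the kinase that senses double-stranded RNA) by 0.66 ± 0.18 and 1.06 ± 0.18. A fit of the C3H/HeJ groups alone ended both C3H/HeJ calls (limma adjusted p = 0.0738 and 0.0849). Ppp1r15b, the constitutive phosphatase subunit, fell by 0.45 ± 0.14 in C3H/HeJ, which was 0.04 with spike-in scaling. Gcn1, the activator of the amino acid sensing kinase GCN2, fell by 0.57 ± 0.09 in WSB/EiJ, and Eif2ak1 (HRI) fell by 0.76 ± 0.12. Spike-in scaling turned both (0.30 and 0.11), and the Gcn1 call was also lost with quantile normalization and normexp correction.

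Of 9 amino acid transporters, 2 rose and 1 fell in A/J, 3 rose and 3 fell in C3H/HeJ, and 5 rose and 4 fell in WSB/EiJ, with medians of 0.04, 0.13 and 0.55. Over all genes, 5.93%, 18.2% and 24.6% rose and 4.41%, 27.1% and 47.6% fell in the same strains. Slc7a1, which carries arginine and lysine, rose by 1.60 ± 0.37 in C3H/HeJ and 3.51 ± 0.37 in WSB/EiJ (11.4-fold). Slc6a9, a glycine transporter, rose by 0.91 ± 0.18 in A/J and 0.73 ± 0.18 in C3H/HeJ and fell by 0.53 ± 0.18 in WSB/EiJ. Slc7a5, the leucine exchanger, rose by 0.87 ± 0.26 in A/J and 1.25 ± 0.26 in WSB/EiJ. A fit of the A/J groups alone ended the A/J calls of Slc6a9 and Slc7a5, and no background filter ended that of Slc7a5. Slc38a2, a carrier of neutral amino acids, fell by 0.85 ± 0.15 in C3H/HeJ and 0.90 ± 0.15 in WSB/EiJ, and Slc1a4, another one, by 1.10 ± 0.32 and 2.44 ± 0.32. Spike-in scaling ended the Slc38a2 call in C3H/HeJ (limma adjusted p = 0.0805). Slc7a11, the cystine transporter, was not well above background on the control arrays of WSB/EiJ and rose there at least 1.16-fold. It is also the gene counted as lower in A/J, where it was not well above background in either group, so no fold is given.

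Of 12 cytosolic tRNA synthetases, 2, 3 and 3 rose and 1, 2 and 3 fell in A/J, C3H/HeJ and WSB/EiJ, with medians of 0.04, -0.02 and -0.15. Among all genes 5.93%, 18.2% and 24.6% rose and 4.41%, 27.1% and 47.6% fell. With spike-in scaling 8, 9 and 9 synthetases rose and 1, 0 and 0 fell. That scaling moved the median of all genes by 0.31, 0.37 and 0.58, and in A/J it called 4232 genes higher and 184 lower. Gars rose by 0.44 ± 0.07, 0.57 ± 0.07 and 0.54 ± 0.07, and Sars by 0.36 ± 0.09, 0.26 ± 0.09 and 0.35 ± 0.09. Median centring and a fit of the C3H/HeJ groups alone ended the Sars call in C3H/HeJ. Tars fell by 0.75 ± 0.14, 0.78 ± 0.14 and 0.88 ± 0.14 (-0.01 in WSB/EiJ with spike-in scaling). Its C3H/HeJ call was lost with spike-in scaling. Aars fell by 0.71 ± 0.10 in WSB/EiJ, a sign that spike-in scaling turned (0.16). Quantile normalization, spike-in scaling and normexp correction each ended the WSB/EiJ calls of Tars and Aars.

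Of 9 enzymes of serine, proline and mitochondrial folate metabolism that were tested, out of 10 listed, 2, 4 and 4 rose and 1, 3 and 3 fell, with medians of 0.04, -0.04 and 0.12. Over all genes, 5.93%, 18.2% and 24.6% rose and 4.41%, 27.1% and 47.6% fell. The mitochondrial folate enzymes Mthfd2 and Mthfd1l rose in every strain. Mthfd1l rose by 2.12 ± 0.26, 2.19 ± 0.26 and 3.05 ± 0.26, and Mthfd2 by 1.25 ± 0.30, 2.40 ± 0.30 and 2.74 ± 0.30, with some control arrays of A/J and C3H/HeJ not well above background. The A/J call of Mthfd2 was lost with normexp correction (limma adjusted p = 0.138). Aldh18a1, of proline synthesis, rose at least 2.07-fold in C3H/HeJ. Cth, which makes cysteine from cystathionine, fell by 1.55 ± 0.29, 1.52 ± 0.29 and 1.67 ± 0.29, and Shmt2, the mitochondrial serine hydroxymethyltransferase, by 0.71 ± 0.17 in C3H/HeJ and 1.41 ± 0.17 in WSB/EiJ.

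Among 14 tested genes of 15 listed as other ATF4 and CHOP targets, 5, 5 and 9 rose and 0, 2 and 4 fell (0 fell in A/J at an unadjusted p under 0.05 also), with medians of 0.25, 0.14 and 0.75. Over all genes, 5.93%, 18.2% and 24.6% rose and 4.41%, 27.1% and 47.6% fell. Fgf21, a liver hormone, rose by 2.41 ± 0.48, 2.98 ± 0.48 and 6.58 ± 0.48, the last a 95.3-fold rise. Nupr1, a stress-inducible chromatin protein, rose by 1.81 ± 0.42, 4.65 ± 0.42 and 4.86 ± 0.42 in A/J, C3H/HeJ and WSB/EiJ. Its A/J call was lost in a fit of the A/J groups alone (limma adjusted p = 0.0772). Tnfrsf10b, a death receptor that CHOP induces, rose by 2.61 ± 0.38 in C3H/HeJ, where 1 of 4 control arrays was well above background, and by 3.81 ± 0.38 in WSB/EiJ. Gdf15, a secreted stress hormone, rose by 1.25 ± 0.31, 2.66 ± 0.31 and 1.07 ± 0.31, and Eif4ebp1, a brake on translation, by 0.85 ± 0.14 in A/J and 0.67 ± 0.14 in WSB/EiJ.

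The unfolded protein response of the endoplasmic reticulum can raise Ddit3 as well. Of its 16 chaperones and sensors, 0 rose in any strain, and 0, 3 and 12 fell in A/J, C3H/HeJ and WSB/EiJ by limma. At an unadjusted p under 0.05, 1, 0 and 0 rose and 3, 4 and 12 fell, and the medians were -0.22, -0.28 and -0.76. By adjusted p, 5.93%, 18.2% and 24.6% of all genes rose and 4.41%, 27.1% and 47.6% fell. Hyou1 fell by 1.43 ± 0.24, Calr by 1.03 ± 0.15 and Pdia6 by 0.82 ± 0.10 in WSB/EiJ, and Sdf2l1 by 0.82 ± 0.27, Hsp90b1 by 0.52 ± 0.20 and Ern1 by 0.32 ± 0.11 in C3H/HeJ. These falls depend on the scale: in WSB/EiJ 1 rose and 2 fell with quantile normalization, and 3 rose and 0 fell with spike-in scaling. In C3H/HeJ 1 rose and 1 fell with quantile normalization, and 3 rose and 0 fell with spike-in scaling. The median of all genes moved by 0.37 in C3H/HeJ and 0.58 in WSB/EiJ with spike-in scaling. Spike-in scaling ended the call of each of the 6 named genes and turned the sign of Pdia6 in WSB/EiJ (0.18). The Pdia6 call was also lost with quantile normalization and normexp correction. Ern1 reached 0.17 at its highest setting, and the other 4 stayed below 0 under all of them. Of 12 other settings, Hsp90b1 lost its call in 6, Ern1 in 5 (the mean of all probes and array weights among them) and Sdf2l1 in 3.

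**Figure D4:**
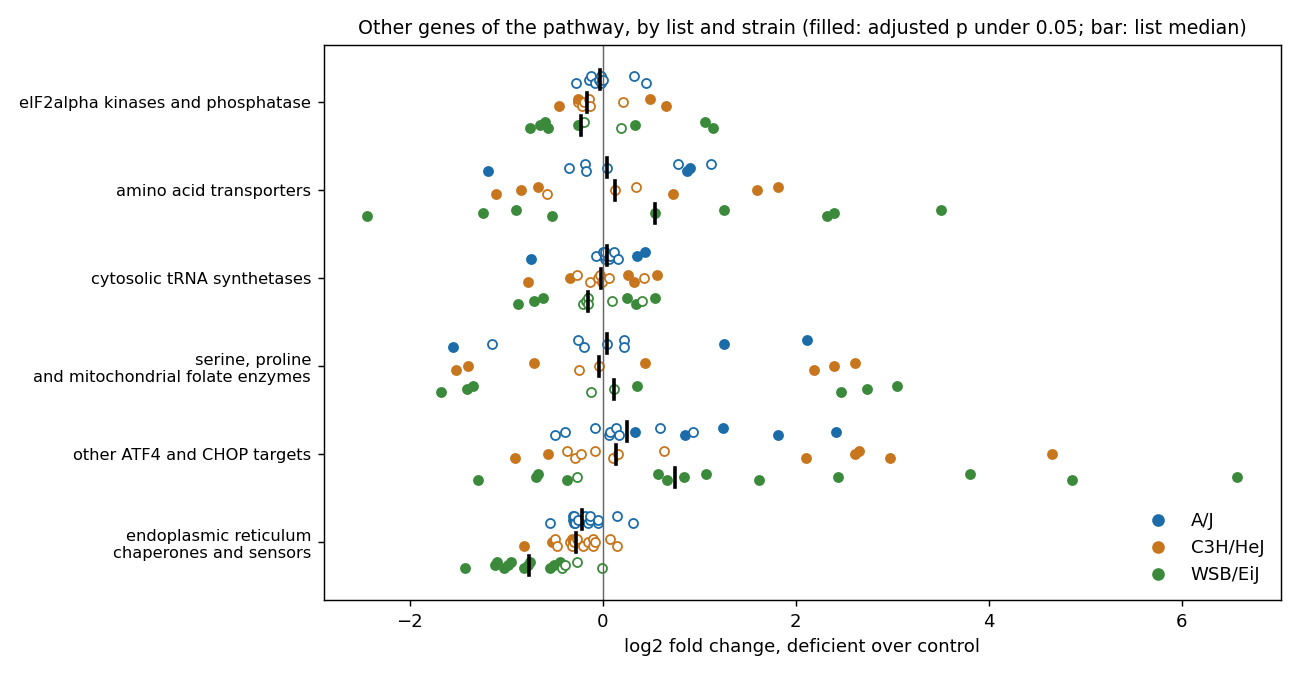
Log2 fold change, deficient over control diet, of each tested gene of 6 further lists of the pathway, in A/J, C3H/HeJ and WSB/EiJ; filled points have a limma adjusted p under 0.05 and black bars are list medians. The widest rises include Fgf21 and Nupr1 among other ATF4 and CHOP targets and the transporter Slc7a1 in WSB/EiJ. The list medians of the endoplasmic reticulum chaperones lie below 0 (-0.22, -0.28 and -0.76), and spike-in scaling moves them to 0.14, 0.21 and 0.11. With that scaling the median of all genes moves by 0.31, 0.37 and 0.58.

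Markers of other cells moved with the same groups, and in bulk liver more cells of a type and more RNA per cell cannot be told apart. The counts below stand beside 5.93%, 18.2% and 24.6% of all genes that rose and 4.41%, 27.1% and 47.6% that fell. Of 10 macrophage markers 5, 8 and 9 rose and 0 fell in A/J, C3H/HeJ and WSB/EiJ, and their summed scaled intensity went from 17015 to 33246 on the control diet to 35642 to 44064 on the deficient diet in A/J, from 12200 to 20330 to 24955 to 37560 in C3H/HeJ, and from 6585 to 8182 to 42964 to 53322 in WSB/EiJ. Trem2 and Cd68 rose by 7.80 ± 0.48 and 4.20 ± 0.23 in WSB/EiJ. Of 10 stellate and fibroblast markers 3, 7 and 9 rose, and their sum in WSB/EiJ went from 12239 to 17878 to 51336 to 79582. Of 10 cell cycle genes 4, 10 and 10 rose. Of 10 hepatocyte markers 2, 8 and 10 fell and 0 rose (2, 1 and 4 fell with spike-in scaling), with sums in WSB/EiJ of 1856784 to 2070982 on the control diet and 856554 to 1052913 on the deficient diet. A/J control 4 had the highest stellate and fibroblast sum of its group (24763 against 12315 to 16418), with a macrophage sum inside the range of the others. Cfd, the only one of 5 adipose markers that could be tested, stood at 1837 on A/J control 4 against 22.25 to 144 on the other A/J controls and 190.6 on A/J deficient 4. It passed in no strain, also at an unadjusted limma p under 0.05. Of 7 cholangiocyte markers 0, 2 and 5 rose and 0 fell (in A/J 0 rose and 2 fell at an unadjusted limma p under 0.05), with WSB/EiJ sums of 941.9 to 1311 on the control diet and 2778 to 12252 on the deficient diet. Of 6 erythroid markers 1, 5 and 4 fell and 0 rose, of 6 lymphocyte markers 1, 2 and 3 fell and 0, 1 and 1 rose, and of 4 neutrophil markers 1, 2 and 2 fell and 0, 0 and 1 rose. Of 7 endothelial markers 1, 2 and 1 rose and 0, 0 and 3 fell, and of 7 pancreas markers 2 rose and 1 fell in WSB/EiJ and 0 passed in the other strains (2 rose in A/J at an unadjusted limma p under 0.05). The part of these cell types in the rises of Atf3, Ddit3, Psat1 and Phgdh was not tested.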

How the data were processed

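Liver RNA of 24 samples was labelled with Cy3 and hybridised to Agilent arrays. Per the file headers, the authors extracted spot intensity with Feature Extraction 10.7, which gave a background-subtracted processed signal, and probe positions are those of mm9. Here, log2 of that signal was set relative to each array's 75th percentile, 3332 outlier spots were dropped, and each gene was read by its brightest probe and tested where that probe cleared background on every array of 1 group or more (15542 genes). Fits over all 6 groups used limma 3.58.1 in R 4.3.3 (with the package data.table, version 1.17.8), with 12 contrasts and Benjamini-Hochberg adjustment at 0.05, after a check on simulated data. Groups came from the labels.

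The members and gene lists were chosen with earlier results of these data known. All 9 members are named throughout. From each other pathway list, up to 3 genes per strain with the lowest adjusted p among those passing are named, with their values in the other strains where these passed, up to 2 genes per marker list, and for each member the 2 other genes most correlated with it. Lists of cholangiocyte, endothelial, lymphocyte, neutrophil, pancreas, erythroid and adipose markers were also counted. Alternatives were other scalings (quantile, median, spike-in), normexp with an offset of 50 followed by quantile normalization, the deposited value table, other filters and probe rules, slide or replicate blocks, array weights, fits of the compared groups alone, and each array left out. The authors' deposited values equal the processed signal times 1 constant per array. Arrays with the same replicate number correlated at -0.348 to 0.066 in their deviations from group means, so the numbers were not taken as pairs.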

Additional observations from a re-analysis of the deposited data

Results flagged for a closer look

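Within groups of 4 arrays, 54 sets of member values were looked at for a single array far from the rest, which chance gives in about 1 of 20. Psat1 on C3H/HeJ control 2 stood at 5.78 against 32.2 to 40.8 on the other 3, and Phgdh on A/J control 4 at 118 against 23.4 to 28.4.

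The diet effect differed between strains by the contrast of limma in 11 of 27 member comparisons. Over all genes, 2.14% were higher and 1.31% lower for C3H/HeJ minus A/J, and 17% and 31.9% for WSB/EiJ minus A/J. The shares for WSB/EiJ minus C3H/HeJ were 9.25% and 16.9%. For C3H/HeJ minus A/J the differences were -1.65 for Chac1 and -1.89 for Trib3. For WSB/EiJ minus A/J they were 3.82 for Atf3, -0.67 for Atf5, 1.70 for Ddit3, 2.91 for Phgdh, 2.83 for Psat1 and 1.73 for Trib3. For WSB/EiJ minus C3H/HeJ they were 2.26 for Chac1, 1.30 for Ddit3 and 3.62 for Trib3. Spike-in scaling ended the C3H/HeJ minus A/J calls of Chac1 and Trib3 and the WSB/EiJ minus A/J call of Atf5.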

How the results depend on the processing

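Of 974 member values under other settings, 883 kept direction and side of the threshold, 38 lost the call, 25 gained one and 28 turned sign. With 1 array left out the counts were 786, 43, 12 and 7 of 848. The replicate block changed no member call (79 of 79), with 5 members called for diet in A/J. The cause of the changes below was not tested.

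Atf4 turned sign for diet in A/J (0.009 quantile, 0.20 spike-in), C3H/HeJ (0.11 spike-in, 0.12 normexp) and WSB/EiJ (0.60 quantile, 0.68 spike-in, 0.63 normexp). Its difference of effects turned for C3H/HeJ minus A/J (0.12 normexp) and WSB/EiJ minus A/J (0.59 quantile, 0.064 median, 0.48 spike-in, 0.63 normexp, 0.023 array weights, -0.111 to 0.054 with 1 array left out). Atf5 turned for diet in WSB/EiJ (0.99 quantile, 0.12 median, 0.83 spike-in, 1.03 normexp), for WSB/EiJ minus A/J on control (-0.083 quantile, -0.07 normexp) and deficient diet (0.076, 0.10), for WSB/EiJ minus C3H/HeJ on control diet (-0.07, -0.14), and for the differences WSB/EiJ minus A/J (0.16, 0.17) and minus C3H/HeJ (0.48 quantile, 0.20 spike-in, 0.55 normexp). Phgdh in A/J was -0.024 without deficient 3, and 0.816 without control 4, its lowest and highest values with 1 array left out.

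Members called changed from 1 to 2 for C3H/HeJ against A/J on control diet (array weights), from 3 to 5 (probes above background on all arrays, which drops Psat1 and Phgdh) and 6 (array weights) for WSB/EiJ against A/J, and from 4 to 2 for WSB/EiJ against C3H/HeJ (quantile, median, spike-in, normexp, no filter). On the deficient diet C3H/HeJ against A/J went from 4 to 2 (median, spike-in, compared groups alone). For diet they were 2 of 9 in A/J with compared groups alone and 3 in C3H/HeJ with probes above background on all arrays. The C3H/HeJ minus A/J differences fell from 2 to 0 (spike-in, compared groups alone, without both A/J arrays 4) and 1 (no filter). WSB/EiJ minus C3H/HeJ rose from 3 to 5 (quantile, compared groups alone, array weights) and 7 (normexp). Genes called in A/J went from 1607 to 4416 (spike-in, 4232 higher and 184 lower), 952 (compared groups alone), 3351 (array weights) and 2425 (without both A/J arrays 4), and in C3H/HeJ from 7041 to 4607 (compared groups alone).

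With each array left out in turn, members called ranged over 1 to 2, 3 to 5 and 2 to 4 on control diet and 3 to 4, 4 to 7 and 7 to 7 on deficient diet (C3H/HeJ against A/J, WSB/EiJ against A/J, WSB/EiJ against C3H/HeJ). For diet they were 2 to 5, 5 to 6 and 6 to 6 (genes 777 to 2101, 5249 to 8255 and 10651 to 11217), and for the differences 0 to 3, 6 to 7 and 3 to 4. Dim control signals limit the size of the Psat1 and Phgdh folds.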
